A study of Mus musculus with 3 samples.

Results

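Bone morphogenetic proteins (BMPs) are secreted ligands that bind paired serine/threonine kinase receptors and act through receptor-activated Smad proteins. The Id genes are direct targets of this signal in many cells; their proteins lack a DNA-binding domain and hold E-proteins, a class of transcription factor, in inactive pairs. Smad6 is an inhibitory Smad induced by the same signal, while secreted antagonists such as gremlin 1 and modulators such as BMPER (BMP-binding endothelial regulator) act on the ligand outside the cell. In the developing lung, BMP4 is known for its part in airway growth. The 9 genes described here are the ligands Bmp3, Bmp4 and Bmp5, the extracellular antagonist Grem1 and modulator Bmper, the inhibitory Smad Smad6, and the targets Id1, Id2 and Id3. They were taken by name from the deposited matrix, which held all 9 among its 31730 genes.

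The cells were mesenchymal cells from lungs of 7-day-old mice. All pups carried 1 copy each of Fgf18CreERT2 (a tamoxifen-dependent Cre recombinase at the fibroblast growth factor gene Fgf18), ROSATDTomato (a red reporter that Cre switches on) and PdgfrαEGFP (a green reporter at the Pdgfra locus), and tamoxifen was given from day 2 to day 5. Sorting gave 3 libraries, 1 per gate: GFP-high TdT-high (1511 cells), GFP-high TdT-neg (3347 cells) and GFP-low TdT-neg (1284 cells). The red label therefore marks cells in which Cre had acted by day 7 and their descendants, not present Fgf18 expression, and the number of pups behind a library is not stated in these sources. Droplet capture used the 10x Genomics 3′ v3.1 chemistry, which counts molecules by unique molecular identifiers (UMIs).

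The libraries held 34506226 UMIs (GFP-high TdT-high), 68692834 UMIs (GFP-high TdT-neg) and 26586489 UMIs (GFP-low TdT-neg), and the median cell 19629 to 22401 UMIs. Levels are in CPM, the UMIs of a gene scaled to a total of 1000000, and intervals are exact 95% intervals that cover counting error only. With 1 library per gate no difference has a replicate check and no test was run. A gene is called higher or lower here only when its ratio was at least 1.5-fold, its interval left out 1 and its mean level was at least 5 CPM. Across libraries, 4 barcode sequences occurred in more than 1 library, too few to bear on the sums. The deposited cell types carried their markers in sum: the summed myofibroblast list (8 genes) stood at 13460 to 14680 CPM in the MyoFB types of both GFP-high libraries, and the alveolar fibroblast list (9 genes) at 6552 to 9236 CPM in the GFP-low MatFB types against 61.3 to 103 CPM in those MyoFB types. Egfem1 made up most of the myofibroblast sum (8727 to 11900 CPM), except in GFP-high TdT-high MyoFB-Ter cells. There Aspn led with 7272 CPM and Tgfbi held 2556 CPM, while Egfem1 stood at 2691 CPM, Pdgfra at 24.6 CPM and Stc1 at 2.07 CPM. Hhip, also of this list, was higher in GFP-low MatFB-Type 2 (384 CPM) than in MyoFB-IMR cells (161 CPM in GFP-high TdT-high, 85.3 CPM in GFP-high TdT-neg). The abbreviations of the deposited types are used as given, and which cells a library holds is set by the gates. MyoFB types made up 96.5% of GFP-high TdT-high, 79.4% of GFP-high TdT-neg and 5.14% of GFP-low TdT-neg cells, and MatFB types 0.463%, 5.08% and 82.2% in the same order.

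The promoters of 7 of the 9 genes were found in the RefSeq table of build GRCm38.p6 (250 bases before to 50 after the start of the gene). Promoters of Id2 and Id3, which varied together over the cell types, are shown with that of Grem1, which differed most between the GFP-high libraries within a type. Capitals mark matches on either strand to GGCGCC, the palindrome that BMP-activated Smads bind in the Id1 promoter, to CCAAT, the core of the NF-Y site, and to CAGCTG, a form of the E-box bound by the E-proteins. All 3 are written 5′ to 3′ on the strand of the gene.
Id2, chr12:25096043-25096342, minus strand: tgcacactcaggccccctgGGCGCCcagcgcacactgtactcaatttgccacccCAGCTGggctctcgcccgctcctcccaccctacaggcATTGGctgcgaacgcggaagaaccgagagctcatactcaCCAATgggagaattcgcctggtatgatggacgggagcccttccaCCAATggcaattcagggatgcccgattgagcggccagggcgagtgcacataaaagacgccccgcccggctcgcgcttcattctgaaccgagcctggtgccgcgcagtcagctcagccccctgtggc
Id3, chr4:136143572-136143871, plus strand: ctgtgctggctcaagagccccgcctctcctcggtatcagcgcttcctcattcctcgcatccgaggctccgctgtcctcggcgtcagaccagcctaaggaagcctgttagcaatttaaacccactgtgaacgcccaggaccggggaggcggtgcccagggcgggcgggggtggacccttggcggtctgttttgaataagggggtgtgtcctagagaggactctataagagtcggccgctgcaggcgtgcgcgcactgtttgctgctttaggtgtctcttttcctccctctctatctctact
Grem1, chr2:113758599-113758898, minus strand: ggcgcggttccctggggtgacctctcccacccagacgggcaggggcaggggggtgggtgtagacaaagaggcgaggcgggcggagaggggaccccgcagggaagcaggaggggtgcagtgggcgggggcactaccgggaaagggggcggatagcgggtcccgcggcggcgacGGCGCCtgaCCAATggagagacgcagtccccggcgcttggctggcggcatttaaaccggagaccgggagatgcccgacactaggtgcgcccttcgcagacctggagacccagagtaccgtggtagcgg
The Id2 promoter held 1 GGCGCC, 3 CCAAT and 1 CAGCTG, and the Grem1 promoter 1 GGCGCC and 1 CCAAT. The window at Id3 held none of the 3, which says only that these letters are not in this stretch. Among all 32851 promoters of the table, 11.9% held GGCGCC, 37.4% CCAAT and 16.3% CAGCTG, so each of these matches is common. Of the other windows, that of Smad6 held 1 CCAAT and those of Bmp4, Bmp5 and Bmper none of the 3 motifs.

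Bmp3 (chr5:98854415-98884396 on the plus strand, build GRCm38 and GENCODE M21 as for the positions that follow) stood highest in the MatFB types. Its protein is an atypical member of the family, known to oppose other BMPs. It stood at 5.74 CPM (4.97 to 6.60) in GFP-high TdT-high cells, 9.56 CPM in GFP-high TdT-neg cells and 102 CPM in GFP-low TdT-neg cells, so only the GFP-low library was high over all its cells. In GFP-low cells the level was 127 CPM in MatFB-Type 1, 117 CPM in MatFB-Type 2 and 116 CPM in MatFB-Im,Cuff, neighbours whose intervals overlapped, and 39.7 CPM in AdvFB. The MatFB-Im,Cuff cells of the GFP-high TdT-neg library held 102 CPM and their AdvFB cells 27.7 CPM. MyoFB types differed among themselves: MyoFB-Ter cells held 40.7 CPM in GFP-high TdT-high, 3.58 CPM in GFP-high TdT-neg and 79.4 CPM in the 23 GFP-low cells of that type. MyoFB-IMR cells had nearly none, at 0.274 CPM (3 UMIs in 467 cells) in GFP-high TdT-high and 0.0981 CPM (2 UMIs in 1032 cells) in GFP-high TdT-neg.

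Bmp4 (chr14:46383520-46390669, minus strand) and Bmp5 (chr9:75775364-75900310, plus strand), both activating ligands, were spread far more evenly over the gates. Bmp4 stood at 113 CPM in GFP-high TdT-high, 112 CPM in GFP-high TdT-neg and 104 CPM in GFP-low TdT-neg cells. Among types with 50 or more cells in a library it was lowest in GFP-low AdvFB cells (62.7 CPM). It was highest in GFP-high TdT-neg MatFB-Im,Cuff cells (189 CPM). The dividing types DivFB-G2M (182 CPM) and DivFB-S/G2M (161 CPM) of the same library followed, each interval overlapping that of the type before. DivFB-S/G2M (144 to 179) lay above the interval of MyoFB-Int, the next type there (125 CPM, 121 to 130). Bmp5 stood at 215 CPM (GFP-high TdT-high), 190 CPM (GFP-high TdT-neg) and 194 CPM (GFP-low TdT-neg). Among types of 50 or more cells it was highest in GFP-low MatFB-Type 2 (262 CPM), followed by MyoFB-IMR and MyoFB-Int cells, whose intervals overlapped within each library (232 and 228 CPM in GFP-high TdT-high, 222 and 221 CPM in GFP-high TdT-neg). Among the same types, AdvFB stood below every other type of its library for Bmp5, at 32.7 CPM in GFP-high TdT-neg and 27.7 CPM in GFP-low TdT-neg cells. Genes of the other strand overlap Bmp4 (Gm15217 and Gm15222) and Bmp5 (Gm26903), and Gm47723 overlaps Bmp5 on its own strand. The effect of these overlaps on the counts was not tested.

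Of the extracellular regulators, Grem1 (chr2:113746164-113758646, minus strand), whose protein binds and blocks BMP2, BMP4 and BMP7, was the rarest of the 9 genes in number of positive cells. It gave 236 UMIs in GFP-high TdT-high cells (6.84 CPM), 77 UMIs in GFP-high TdT-neg cells (1.12 CPM) and 12 UMIs in GFP-low TdT-neg cells (0.451 CPM). MyoFB-Ter held 165 of the 236 UMIs in the GFP-high TdT-high library. In the GFP-high TdT-neg library, AdvFB led with 30 UMIs, but these lay in 6 of 328 cells and 1 cell held 21 of them. No Grem1 UMI was found in 148 GFP-low AdvFB cells, which allows a share of up to 2.03% of cells with a UMI.

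Bmper (chr9:23223076-23485200, plus strand), a relative of the fly protein Crossveinless 2 that can promote or restrain BMP signals, stood at 220 CPM in GFP-high TdT-high, 232 CPM in GFP-high TdT-neg and 293 CPM in GFP-low TdT-neg cells. The types within a library spread wider than these levels over all cells. GFP-low MatFB-Type 2 cells had 444 CPM and MatFB-Type 1 cells 289 CPM, and MyoFB-Int cells 227 CPM (GFP-high TdT-high) and 283 CPM (GFP-high TdT-neg). At the other end were MatFB-Im,Cuff cells of the GFP-high TdT-neg library (11.6 CPM) and AdvFB cells of the GFP-low library (21.2 CPM). The gates differed within both types, with 102 CPM in GFP-low MatFB-Im,Cuff and 66.3 CPM in GFP-high TdT-neg AdvFB cells.

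Smad6 (chr9:63953076-64022059, minus strand) divided the types most simply. It stood at 93.8 CPM in GFP-high TdT-high, 68.3 CPM in GFP-high TdT-neg and 17.9 CPM in GFP-low TdT-neg cells. Every MyoFB or DivFB type of 50 or more cells held 76.4 to 118 CPM. Every such MatFB or AdvFB type held 8.06 to 21.3 CPM, so these levels did not overlap. The share of all genes that split the types in this way was not counted. Over these 14 groups of library and type, log2 CPM of Smad6 ran opposite to that of Bmp3 (Pearson r = -0.82), a description only, since groups of 1 library share its depth and preparation.

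The Id genes Id1 (chr2:152736251-152737410, plus strand), Id2 (chr12:25093799-25097140, minus strand) and Id3 (chr4:136143497-136145755, plus strand) followed other orders. Id2 stood at 125 CPM in GFP-high TdT-high, 105 CPM in GFP-high TdT-neg and 55.9 CPM in GFP-low TdT-neg cells. Its highest levels were in GFP-high TdT-high MyoFB-Ter cells (279 CPM) and in AdvFB cells (199 CPM in GFP-high TdT-neg, 217 CPM in GFP-low), and its lowest in GFP-low MatFB-Type 1 (11.6 CPM) and MatFB-Type 2 (18.3 CPM). Id3 stood at 303, 311 and 241 CPM in the same order of libraries, and was likewise highest in AdvFB cells (471 CPM in GFP-high TdT-neg, 597 CPM in GFP-low) and lowest in GFP-low MatFB-Type 1 (61.8 CPM). Id2 and Id3 had the most alike patterns among the 36 pairs of these genes over the 14 groups (r = 0.86). Id1 stood at 58.2, 48.9 and 51.4 CPM and was highest in a dividing type, DivFB-S/G2M of the GFP-high TdT-neg library, at 131 CPM (116 to 147), against 61.3 CPM (51.1 to 73.0) in MatFB-Im,Cuff, the next in that library. The 16 GFP-high TdT-high DivFB-S/G2M cells had 128 CPM.

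**Figure D1:**
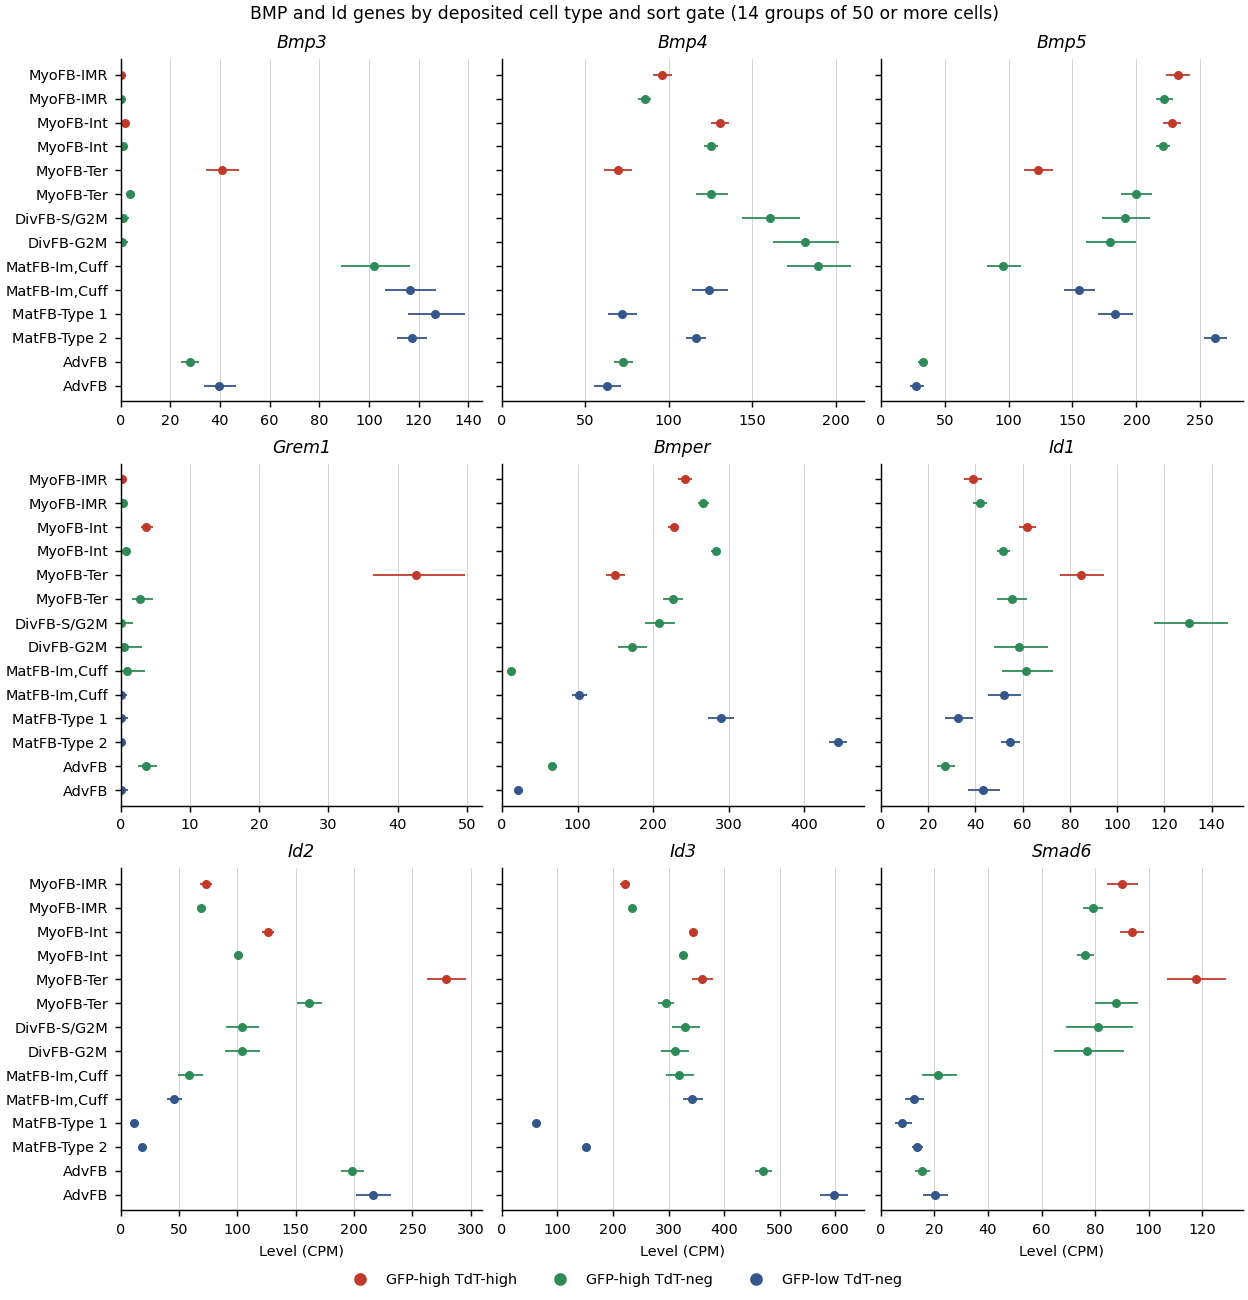
Level of each gene (x axis, CPM) in the 14 groups of library and deposited type with 50 or more cells, with colours for the gates and bars for exact 95% Poisson intervals. Bmp3 is near 0 in MyoFB-IMR and MyoFB-Int but stands at 40.7 CPM in GFP-high TdT-high MyoFB-Ter cells, Smad6 splits MyoFB and DivFB from MatFB and AdvFB types, and Id2 and Id3 are high in AdvFB cells.

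Among the genes whose pattern over the 14 groups was most like each member (9572 genes compared), 3 were named per member. For Id3 they were Csrnp1 (r = 0.97), Fos (r = 0.95) and Egr1 (r = 0.95), all immediate early genes, which cells switch on within minutes of a stimulus, tissue digestion included. For Bmp3 they were Tnik (r = 0.99), AI838599 and Vgll3, for Bmp5 Ago1 (r = 0.98), Tbx4 and Plxnc1, and for Grem1 Fgf9 (r = 0.90), Lrrc15 and Irs1. Smad6 ran with Slc25a13 (r = 0.99), Trim67 and Ssbp3, Id2 with Olfml2b (r = 0.97), Gem and Serf2, and Bmper with Trmt1l (r = 0.91), B3galnt1 and Gm37229. Bmp4 and Id1 had looser partners, led by Pithd1 (r = 0.83) and H4c8 (r = 0.85).

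The gate for high Pdgfra reporter was compared first, without the red label: GFP-high TdT-neg over GFP-low TdT-neg. Smad6 was 3.81-fold higher (3.46 to 4.19) and Id2 1.88-fold higher (1.78 to 1.99), whereas Bmp3 was 10.7-fold lower (9.83 to 11.7). These were the 3 calls among the 8 members at or above the level minimum, 2 higher and 1 lower. Over all 11672 genes, 19.5% were called higher and 12.0% lower, and the median log2 ratio was 0.042 over the 8 members and 0.16 over all genes. Bmp4 (ratio 1.09), Bmp5 (0.977), Bmper (0.792), Id1 (0.951) and Id3 (1.29) were within 1.5-fold, and Grem1 was under the level minimum. These libraries hold different types, 79.4% MyoFB against 82.2% MatFB cells, so a difference in cell make-up and one within a type cannot be told apart over all cells.

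Within the 2 types that had 50 cells in both TdT-neg libraries, the pattern was another. In MatFB-Im,Cuff (110 GFP-high and 205 GFP-low cells) Bmper had 11.6 CPM (7.43 to 17.2) in GFP-high and 102 CPM (93.0 to 113) in GFP-low cells, an 8.84-fold lower level (5.86 to 13.9). Bmp5 was 1.62-fold lower (1.38 to 1.91), and Bmp4 1.52-fold (1.33 to 1.74) and Smad6 1.72-fold higher (1.13 to 2.63). The 4 calls compare with 15.8% of 11215 genes called higher and 10.2% lower. Bmp3 was within 1.5-fold (ratio 0.875, 0.741 to 1.03). Myofibroblast markers moved with this type: their summed level was 1929 CPM in GFP-high and 714 CPM in GFP-low MatFB-Im,Cuff cells, with 0 of the 8 genes at 0 in either, and the alveolar list ran the other way at 2554 against 6552 CPM. The adventitial list (8 genes, 1 of them at 0 in each group) stood at 2639 CPM in GFP-high and 1696 CPM in GFP-low cells of this type. Its genes did not move together. Dcn stood at 626 against 56.9 CPM, but Dpt went the other way at 425 against 882 CPM, and Clec3b was close at 592 against 540 CPM. The part of such markers in the result was not tested.

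In AdvFB, Bmper went the opposite way. It stood at 66.3 CPM in 328 GFP-high TdT-neg cells and 21.2 CPM in 148 GFP-low cells, 3.13-fold higher (2.47 to 4.02). Id1 was 1.58-fold lower (1.28 to 1.94). These 2 were called among 8 members, against 8.42% of 11140 genes called higher and 9.8% lower. The GFP-low AdvFB cells included 40 of 148 with over 1000 CPM of smooth muscle actin (Acta2), whose decorin (Dcn) stood at 110 CPM against 3592 CPM in the other 108. Those 40 cells carried little Bmp4 (8.24 CPM) and Bmp5 (2.06 CPM) but much Id2 (343 CPM) and Id3 (745 CPM). The adventitial list differed as well, at 12150 CPM in GFP-high and 6664 CPM in GFP-low AdvFB cells with none of its 8 genes at 0. Its Pi16 stood at 217 against 65.5 CPM and its Ly6a at 183 against 20.6 CPM. Without the Acta2-high cells Dcn was still 6122 CPM in GFP-high against 3592 CPM in GFP-low cells, and the part of these markers was not tested. Without those cells the Bmper ratio was 2.50 (1.95 to 3.24) and that of Id1 0.782 (0.613 to 1.005), no longer called. A single GFP-high TdT-neg AdvFB cell held 135 of the 545 Bmper UMIs, and without the highest cell of each library the log2 ratio was 1.58, against 1.60 with them.

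**Figure D2:**
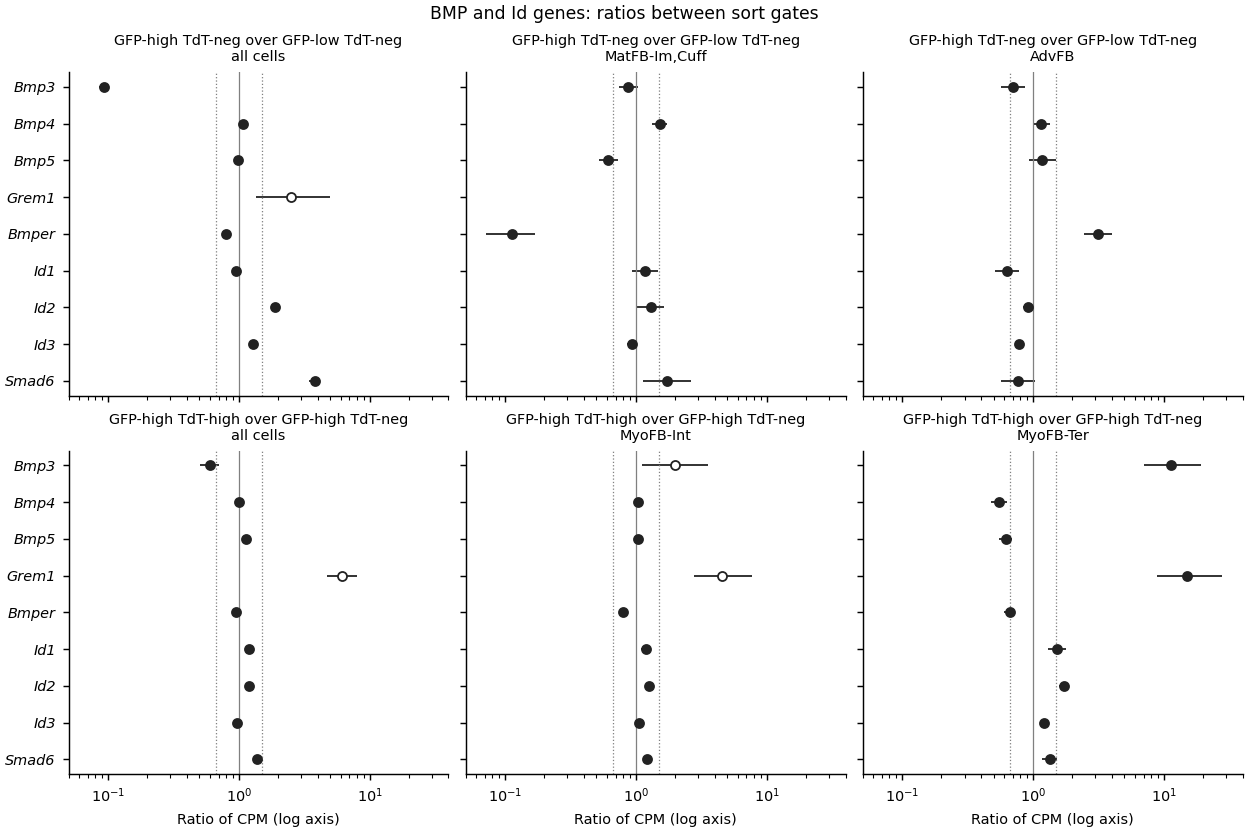
Ratio of CPM between gates (x axis, log scale) for each gene over all cells and within 4 deposited types, with exact 95% intervals; open circles mark genes under the level minimum, solid and dotted lines mark a ratio of 1 and 1.5-fold either way, and Grem1 is not drawn where GFP-low cells held 0 UMIs. Bmper lies left of 1 in MatFB-Im,Cuff and right of 1 in AdvFB, and Bmp3 and Grem1 lie over 10-fold to the right in MyoFB-Ter.

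The red label was examined next, GFP-high TdT-high over GFP-high TdT-neg, a comparison that shares the TdT-neg library with the one before. Over all cells 1 of 8 members at the level minimum was called, Bmp3, 1.67-fold lower (1.42 to 1.96), with 3.96% of all genes called higher and 5.85% lower. With the types of the GFP-high TdT-neg library weighted to those of GFP-high TdT-high, the log2 ratio of Bmp3 was 1.36, in the other direction. Grem1 was 6.10-fold higher (4.70 to 7.998) but under the level minimum, and the other 7 members lay between ratios of 0.947 (Bmper) and 1.37 (Smad6).

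Within MyoFB-IMR none of 7 members above the minimum was called (3.31% of all genes higher, 1.6% lower), and within MyoFB-Int again 0 of 7 (4.03% higher, 3.2% lower). Ratios of these 7 ran from 0.907 to 1.14 in MyoFB-IMR and from 0.803 to 1.25 in MyoFB-Int. Grem1 was already 4.56-fold higher (2.79 to 7.75) in GFP-high TdT-high MyoFB-Int cells, at 3.73 against 0.816 CPM, under the level minimum.

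MyoFB-Ter was where the GFP-high libraries differed. Bmp3 had 40.7 CPM (34.5 to 47.5) in 190 GFP-high TdT-high cells and 3.58 CPM (2.15 to 5.59) in 303 GFP-high TdT-neg cells, 11.4-fold higher (7.04 to 19.4). Grem1 had 42.7 CPM (36.5 to 49.8) and 2.83 CPM (1.58 to 4.66), 15.1-fold higher (8.91 to 27.6). Both passed the level minimum through the GFP-high TdT-high library alone. Id2 was 1.73-fold (1.58 to 1.89) and Id1 1.53-fold higher (1.30 to 1.80), and Bmp4 was 1.81-fold (1.57 to 2.09), Bmp5 1.62-fold (1.45 to 1.81) and Bmper 1.51-fold lower (1.36 to 1.67). In all 7 of 9 members were called, beside 8.37% of 11252 genes higher and 10.4% lower. Id3 (ratio 1.22) and Smad6 (1.34) were within 1.5-fold.

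Shares of cells gave the same order. Bmp3 UMIs lay in 62 of 190 GFP-high TdT-high (32.6%) and 10 of 303 GFP-high TdT-neg MyoFB-Ter cells (3.30%), or 17.4% (12.3 to 23.5) and 1.32% (0.361 to 3.35) after every cell was thinned to 5000 UMIs. For Grem1 these shares were 29.5% and 2.97%, or 11.1% (6.97 to 16.4) and 1.65% (0.538 to 3.81) thinned. MyoFB-IMR cells of the GFP-high TdT-high library, the type with least of either gene, showed Bmp3 and Grem1 in 0.428% of cells each at a median of 23762 UMIs, against 19853 UMIs in MyoFB-Ter. In MyoFB-Int of that library the Grem1 share was 4.99%. The part of free RNA in these shares was not tested. A single cell held 38 of the 165 Grem1 UMIs, and without it the level was 33.1 CPM (27.6 to 39.4). Both genes were seen together in 13 of the 190 GFP-high TdT-high cells, which is 21% of the 62 cells with Bmp3, against a Grem1 share of 33.6% in the 128 cells without it. In GFP-high TdT-neg MyoFB-Ter, 1 of the 10 cells with Bmp3 had Grem1 (10.0%), against 2.73% of those without, and at such low counts many cells can hold either gene unseen.

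The type called MyoFB-Ter was not alike in the libraries. Of its cells, 144 of 190 in GFP-high TdT-high and 52 of 303 in GFP-high TdT-neg had 0 Pdgfra UMIs, and Hhip, a hedgehog-binding protein gene, stood at 1468 and 319 CPM. The summed smooth muscle list (8 genes) was 5355 CPM in GFP-high TdT-high and 3543 CPM in GFP-high TdT-neg MyoFB-Ter cells, none of its genes at 0. This list includes Hhip. Of its other genes, Acta2 was lower at 1274 against 1473 CPM, and Des was alike at 286.6 against 281.9 CPM. Lgr6 (678 against 277 CPM), Cnn1 (140 against 31.8 CPM) and Lmod1 (121 against 53.5 CPM) were higher. So were Actg2 (475 against 310 CPM) and Myh11 (910.8 against 796.5 CPM). Among cells with at least 1 Pdgfra UMI, Bmp3 had 28.4 CPM (19.0 to 40.8) in 46 GFP-high TdT-high and 1.11 CPM (0.362 to 2.60) in 251 GFP-high TdT-neg cells, and Grem1 34.3 CPM (23.9 to 47.7) and 1.56 CPM (0.627 to 3.21). Both GFP-high TdT-neg values lay under 5 CPM, and the part of Pdgfra and Hhip in the difference between gates was not tested.

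Along Hhip, the GFP-high TdT-high MyoFB-Ter cells showed opposite courses for the 2 genes. In bins of up to 300, 300 to 1000, 1000 to 2000 and over 2000 CPM of Hhip (46, 46, 48 and 50 cells), Bmp3 stood at 26.7, 32.9, 37.3 and 64.6 CPM, and only the first and last intervals were apart. Grem1 stood at 85.3, 59.5, 20.2 and 9.09 CPM in the same bins. Without the cell that held 38 UMIs, the first of these was 46.1 CPM (33.2 to 62.3), still above the interval of the third bin (12.3 to 31.1). Id4, a further Id gene, had 68.3, 136, 204 and 239 CPM. In GFP-high TdT-neg MyoFB-Ter cells the last 2 bins held only 21 and 10 cells. Their Bmp3 was 0.802 CPM up to 300 CPM of Hhip and 33.9 CPM (11.0 to 79.0) over 2000, from 5 UMIs.

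The 23 MyoFB-Ter cells of the GFP-low library, too few for the comparisons, are given as values. They held 79.4 CPM of Bmp3 (38 UMIs in 11 cells), 18.8 CPM of Grem1 (9 UMIs in 5 cells), 10.5 CPM of Bmp5 and 46.0 CPM of Bmper. Pdgfra UMIs were absent in 22 of them, and their Bmp5 was below the interval of MyoFB-Ter cells in either GFP-high library.

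The deposited types MyoFB-IMR, MyoFB-Int and MyoFB-Ter were then compared within a library, which leaves gates aside. These types came from clustering on the same counts, so the values are descriptions of the annotation. In GFP-high TdT-high cells, MyoFB-Int over MyoFB-IMR had Id2 1.73-fold (1.60 to 1.88), Id1 1.59-fold (1.42 to 1.78) and Id3 1.56-fold higher (1.49 to 1.64), 3 of 7 members, with 5.71% of genes called higher and 9.64% lower. In GFP-high TdT-neg cells no member was called, but Id2 and Bmp4 stood just under the limit at ratios of 1.47 each and Id3 at 1.39, with 4.14% of genes called higher and 6.23% lower. With TMM scaling, which moved those background shares to 7.87% and 6.51% in GFP-high TdT-high and to 5.47% and 4.57% in GFP-high TdT-neg, Bmp4 and Id2 were called in GFP-high TdT-neg cells.

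MyoFB-Ter over MyoFB-Int in GFP-high TdT-high cells had Bmp3 23.9-fold (16.2 to 36.4), Grem1 11.5-fold (8.60 to 15.5) and Id2 2.21-fold higher (2.05 to 2.38), and Bmp4 1.88-fold, Bmp5 1.85-fold and Bmper 1.51-fold lower, with 7.45% of genes called higher and 7.25% lower. Bmp3 and Grem1 passed the level minimum through MyoFB-Ter alone, where they are high, at 1.70 and 3.73 CPM in MyoFB-Int. In GFP-high TdT-neg cells Id2 alone was called, 1.60-fold higher (1.48 to 1.73), with 3.69% higher and 3.06% lower. Bmp4 had the same level, 125 CPM, in MyoFB-Ter and MyoFB-Int of that library. Id2 was thus called at this step in both GFP-high libraries, but in GFP-high TdT-neg the call ended with thinned cells (log2 ratio 0.58) and with only cells that had a Y-linked and no Xist UMI (0.32), against 0.67. With only cells that had an Xist UMI it was 1.20.

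**Figure D3:**
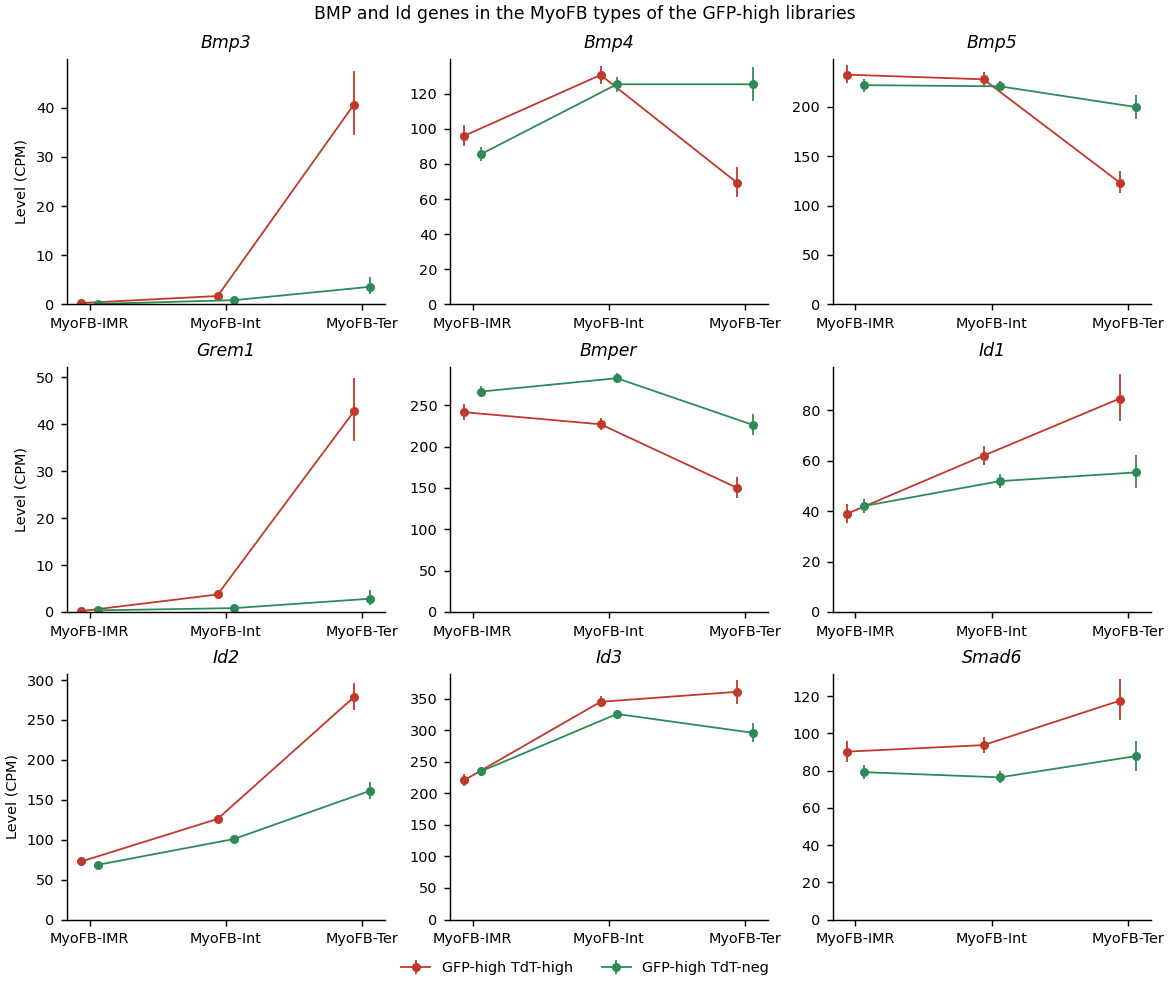
Level of each gene (y axes, CPM) in the deposited MyoFB types of both GFP-high libraries, with exact 95% Poisson intervals. Id2 has 72.8, 126 and 279 CPM over the 3 types in GFP-high TdT-high and 68.5, 101 and 161 CPM in GFP-high TdT-neg, whereas Bmp3 and Grem1 stand out in GFP-high TdT-high MyoFB-Ter cells, where Bmp4 and Bmp5 are lower.

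Immediate early genes moved with Id1, Id2 and Id3 in single cells. A list of 21 such genes was summed per cell and divided by the UMIs of the cell. The cells of each library and type with 100 or more cells were split into tertiles by that share, 12 groups in all. Id3 was at least 1.5-fold higher in the highest than in the lowest tertile in 10 of 12 groups (median ratio 2.37, range 1.22 to 4.61), Id2 in 9 (median 1.58) and Id1 in 8 (median 1.66). Id4 was so in 3 of 12 (median 1.16). Bmp4 and Smad6 reached 1.5-fold higher in none (medians 0.962 and 1.00), and Bmp5 was at least 1.5-fold lower in 3 (median 0.769). Within GFP-high TdT-high MyoFB-Int cells Id3 stood at 562 CPM in the highest, 224 CPM in the middle and 214 CPM in the lowest tertile, so the difference lay in the highest tertile. Its ratio of highest to lowest was 2.63 (2.46 to 2.81) there and 2.82 (2.67 to 2.98) in GFP-high TdT-neg MyoFB-Int cells, and those of Id1 were 3.20 and 2.71. The counts of groups used the ratio alone, so Id2 in GFP-low MatFB-Type 1 was included at 1.72 (0.799 to 3.93). The share over all genes used a stricter rule, with an interval above 1 and a mean of at least 5 CPM as well. By that rule 6.0% of genes were higher in GFP-high TdT-high MyoFB-Int, 5.43% in GFP-high TdT-neg MyoFB-Int and 7.8% in GFP-low MatFB-Type 2 cells.

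The same list differed between types. Its sum was 5454 CPM in MyoFB-Int and 3004 CPM in MyoFB-IMR cells of the GFP-high TdT-high library, 5059 and 2572 CPM in GFP-high TdT-neg, and 12920 CPM in GFP-high TdT-neg and 11790 CPM in GFP-low AdvFB cells, none of its genes at 0. With the lowest tertile of each type alone, no Id gene was called for MyoFB-Int over MyoFB-IMR in either library: the log2 ratios in GFP-high TdT-high cells were 0.56 for Id2, 0.39 for Id3 and 0.22 for Id1, while Bmp4 was called at 0.66. Id1 was then called for MyoFB-Ter over MyoFB-Int in GFP-high TdT-high cells (1.20). Id2 stayed called for MyoFB-Ter over MyoFB-Int (log2 ratio 1.12 in GFP-high TdT-high and 0.65 in GFP-high TdT-neg). Within MyoFB-Ter, GFP-high TdT-high over GFP-high TdT-neg, Id1 (0.62) and Id2 (0.75) also stayed called.

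**Figure D4:**
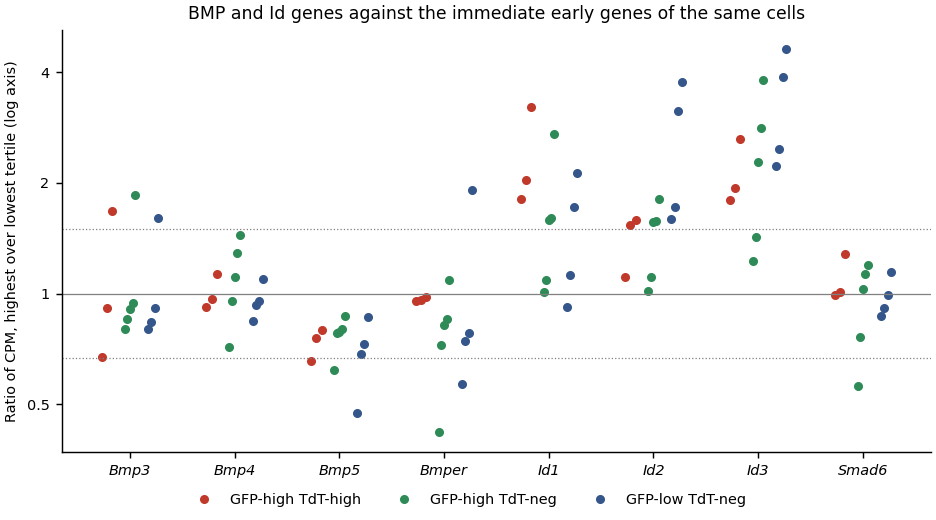
Ratio of CPM between the highest and the lowest tertile of cells by the share of immediate early UMIs in the cell (y axis, log scale) for 8 genes, with 1 point per library and type of 100 or more cells and colours for the gates. Id3 points lie between 1.22 and 4.61, those of Bmp5 between 0.473 and 0.868.

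Id3 varied widely between cells. After thinning, the variance of its UMIs over their mean was 3.21 in GFP-high TdT-neg MyoFB-Int cells, against a median of 1.42 for 257 genes of like mean, and 2.78 against 1.52 in GFP-high TdT-high. Other members also lay above genes of like mean in GFP-high TdT-neg MyoFB-Int, Bmper at 2.13 against 1.36 and Bmp5 at 1.80 against 1.26. Bmper had the widest spread in GFP-low MatFB-Type 2 cells, 3.23 against 1.61, and 1 GFP-low cell held 157 Bmper UMIs.

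The rest of the pathway was described from 6 lists that leave the members out. For GFP-high TdT-neg over GFP-low TdT-neg, 6 of 12 ligands reached the level minimum, 4 higher and 2 lower, beside 19.5% and 12.0% of all genes, among them Bmp2 at 32.1 against 3.39 CPM (9.47-fold) and Bmp8a at 18.2 against 105 CPM (5.78-fold lower). Receptors and co-receptors had 4 of 11 higher and 2 lower. The co-receptor endoglin (Eng) stood at 249.4 against 19.9 CPM (12.6-fold) and the type I receptor Bmpr1b at 35.4 against 7.37 CPM (4.80-fold). Of 18 further antagonists and modulators, 9 of them at the minimum, 4 were higher and 2 lower, with Nbl1 at 166 against 33.0 CPM (5.01-fold) and noggin (Nog) at 7.79 against 1.54 CPM (5.05-fold). Bmp2 and Nog were under 5 CPM in GFP-low cells and passed the level minimum through the GFP-high libraries. Of 9 Smads and intracellular regulators 3 were higher and 1 lower, and of 12 targets, 6 of them at the minimum, 1 was higher (Runx2, 2.89-fold) and 1 lower (Tmem100, 3.04-fold). Tcf3 was the 1 of 3 E-protein genes that was higher, 1.75-fold. List medians ran from 0.022 (targets) to 0.71 (ligands) on the log2 scale, beside 0.16 for all genes tested.

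For GFP-high TdT-high over GFP-high TdT-neg 0 of 12 ligands (6 at the minimum), 0 of 11 receptors (11) and 0 of 9 Smads (9) were called over all cells, beside 3.96% of all genes higher and 5.85% lower. Called higher were Nog (16.8 against 7.79 CPM, 2.16-fold), Fstl3 (1.64-fold), Id4 (48.7 against 25.5 CPM, 1.91-fold) and Sox9 (1.51-fold), and lower Runx2 (1.72-fold). Within MyoFB-Ter, 5 of 18 antagonists and modulators, 11 of them at the minimum, were higher and none lower, beside 8.37% of all genes higher and 10.4% lower. They were Nog at 33.9 against 13.4 CPM (2.54-fold), Fst, which encodes follistatin, at 15.0 against 0 CPM, Twsg1 at 221 against 111 CPM (1.99-fold), Bambi at 30.0 against 15.8 CPM (1.90-fold) and Fstl1. Fst passed the level minimum through the GFP-high TdT-high library alone, where it is high. The list's median log2 ratio was 0.60, beside -0.095 for all genes tested. Id4 had 163 against 51.4 CPM (3.18-fold) and Sox9 25.1 against 12.1 CPM (2.08-fold). Of 12 ligands, 5 of them at the minimum, 2 were higher (Gdf10 and Gdf11) and 1 lower, with a median log2 ratio of 0.47. The lower one was Bmp2, at 6.21 against 22.0 CPM (3.55-fold). Of 11 receptors and co-receptors 3 were lower, Bmpr1b (2.19-fold), Acvr2a and Acvr2b, while the co-receptors Rgma and Rgmb were higher. Scaling by DESeq2 size factors moved the background shares in MyoFB-Ter to 9.91% higher and 7.95% lower.

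Along the types within a library, Runx2 was lower in MyoFB-Int than in MyoFB-IMR cells of both GFP-high libraries (4.52-fold in GFP-high TdT-high, 2.73-fold in GFP-high TdT-neg), and so were Eng (2.23-fold and 2.17-fold), Bmpr1b and Acvr2a. Id4 was higher at both steps in both libraries, reaching 163 CPM in GFP-high TdT-high and 51.4 CPM in GFP-high TdT-neg MyoFB-Ter cells. In MatFB-Im,Cuff, GFP-high TdT-neg over GFP-low TdT-neg, 7 of 18 antagonists and modulators, 12 of them at the minimum, were higher and none lower, beside 15.8% and 10.2% of all genes. Among them were Sostdc1 at 26.1 against 0.237 CPM and Nbl1 at 465 against 71.8 CPM. Sostdc1 passed the level minimum through the GFP-high cells alone. The median log2 ratio of the list was 1.43, beside 0.069 for all genes. Bmp7 had 42.0 against 3.32 CPM there (12.7-fold) and passed the level minimum through the GFP-high cells alone. Of 12 targets, 6 of them at the minimum, 1 was higher (Runx2) and 3 were lower (Hes1, Id4 and Tmem100), beside the same shares. Hes1 stood at 55.5 against 134 CPM. In AdvFB cells of the same gates 6 of 18 (12 at the minimum) were higher and 3 lower, beside 8.42% and 9.8% of all genes. Sclerostin (Sost) was among the lower ones, at 0 against 25.5 CPM, and passed the level minimum through the GFP-low cells alone.

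Of the same 18 genes, 6 were higher and 1 lower for MyoFB-Ter over MyoFB-Int in GFP-high TdT-high cells (11 at the minimum), beside 7.45% and 7.25% of all genes, with Fst at 15.0 against 0.438 CPM. Fst passed the level minimum through MyoFB-Ter alone. In GFP-high TdT-neg cells 9 were at the minimum and 0 were called in either direction, beside 3.69% and 3.06% of all genes. Smad9 was higher at that step in both (1.82-fold in GFP-high TdT-high, 1.92-fold in GFP-high TdT-neg). The difference between the libraries in these steps was not tested.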

How the data were processed

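Single-cell RNA was measured in 3 sorted libraries. The deposited matrix holds whole-number UMI counts per gene and cell for 6142 cells, and the authors' table gives each cell's gate and cell type; its mitochondrial percent column was deposited by the authors as well and served as a filter in an alternative. Reads were processed with Cell Ranger 7.0.0 on mm10, per the submitters' processing notes. The authors' cell filters and clustering are not stated in these sources.

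No deposited cell was left out and doublets were not removed. For each library or type, UMIs were added up (50 or more cells for comparisons) and divided by their total (CPM); log2 ratios carry a pseudocount of 1 CPM. Intervals are exact Poisson, Clopper-Pearson and conditional binomial intervals at 95%. A count of 0 allows 3 counts. Log2 CPM was correlated over 14 groups without p-values. Cells were thinned to 5000 UMIs (seed 7). The call rule was run on simulated Poisson counts with known folds. These follow the model behind the intervals, so they say nothing of spread between cells or libraries. Of the gene symbols, 30176 matched GENCODE M21 on GRCm38; RefSeq promoters begin at RefSeq's own gene starts, which for Id2 and Id3 lie inside the GENCODE gene. Further genes were named per list as the 4 with the largest absolute log2 ratio among called genes, plus those behind a count of 5 or fewer. A gene of the antagonist list is not reported here by name. The members and lists were chosen with earlier results of these data known. Alternatives were TMM scaling (edgeR 4.0.16), DESeq2 1.42.0 size factors, the mean of each cell's CPM, other level minimums, thinned cells, cell filters, a 2-fold limit and, chosen after the data were seen, splits of MyoFB-Ter, AdvFB and immediate early tertiles. Work was done in Python 3.11.15 with scipy 1.17.1 and R 4.3.3.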

Additional observations from a re-analysis of the deposited data

Results flagged for a closer look

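Bmper differed in opposite directions between the same gates in the 2 types that both TdT-neg libraries held. The log2 ratio of GFP-high TdT-neg over GFP-low TdT-neg was -3.04 in MatFB-Im,Cuff (9.09% of 110 GFP-high and 53.2% of 205 GFP-low cells with a UMI) and 1.60 in AdvFB (25.9% of 328 and 13.5% of 148 cells). The difference between the types was not tested, since each gate has 1 library.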

How the results depend on the processing

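The 99 log2 ratios of the members gave 1152 values over all alternatives. Of these, 925 moved by no more than the distance from the middle of their counting interval to its ends. A further 225 moved by more than that distance, and 2 changed sign after a call. The sign changes were Bmp3 for GFP-high TdT-high over GFP-high TdT-neg with types weighted (1.36) and Id1 within AdvFB in the lowest immediate early tertile (0.22). Among counts of members called, GFP-high TdT-neg over GFP-low TdT-neg had 3, which no alternative moved by over 1.5 times. For GFP-high TdT-high over GFP-high TdT-neg the 1 call (Bmp3) became 0 with the mean of each cell's CPM, with thinned cells, with only cells that had a Y-linked UMI and at a 2-fold limit, and 2 without a level minimum (Grem1 added). Within MyoFB-Int the 0 became 2 without a minimum (Bmp3 and Grem1). A 2-fold limit left 2 of 7 within MyoFB-Ter (Bmp3 and Grem1), 1 of 4 within MatFB-Im,Cuff (Bmper), 1 of 2 within AdvFB (Bmper), 3 of 6 for MyoFB-Ter over MyoFB-Int in GFP-high TdT-high (Bmp3, Grem1 and Id2) and 0 of 1 in GFP-high TdT-neg. Bmper was also the 1 AdvFB call in the lowest immediate early tertile and without Acta2-high cells. For MyoFB-Int over MyoFB-IMR in GFP-high TdT-high the 3 Id calls became 5 without a minimum (Bmp3 and Grem1 added), 1 with thinned cells (Id2), 1 in the lowest immediate early tertile (Bmp4) and 0 at 2-fold. In GFP-high TdT-neg the 0 became 2 with TMM and 2 with DESeq2 size factors (Bmp4 and Id2), 1 without a minimum (Bmp3), 1 with thinned cells (Id2), 3 with only Xist-positive cells (Bmp4, Id2 and Id3) and 1 in the lowest immediate early tertile (Bmp4). For MyoFB-Ter over MyoFB-Int in GFP-high TdT-neg the 1 (Id2) became 3 without a minimum (Bmp3 and Grem1 added) and 0 with thinned cells and with Y-linked UMIs. Where not stated, the cause was not tested. TMM moved the median log2 ratio of all genes from 0.16 to 0.042 for GFP-high TdT-neg over GFP-low TdT-neg. No paired analysis was possible because each gate has 1 library. Counting intervals say nothing of the spread between pups or sorts, and a level under 5 CPM rests on few UMIs.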
